A study of Mus musculus with 8 samples.

Results

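The comparison described here set the 2 arrays labelled siKlf4 with TGFβ against the 2 arrays labelled siControl with TGFβ, 4 of the 8 arrays of the series, and its members were chosen by these labels alone. The cells were NMuMG cells, an untransformed epithelial line from the mouse mammary gland, of which a single subclone (NMuMG/E9) was used. Cells were transfected with a lipid reagent (Lipofectamine RNAiMax), carrying either a pool of siRNAs against Klf4 (siKlf4) or a control siRNA (siControl), and both compared groups received 2 ng/ml TGFβ for 2 days. The other 4 arrays were labelled siKlf4 and siControl without TGFβ, 2 each. RNA was measured on Affymetrix whole-transcript arrays, and the values are log2 expression values normalized by the authors, so that a difference of 1 is a doubling. Of 34760 probe sets, 21640 carried exactly 1 gene symbol, and the probe set with the highest mean was kept for each gene, which gave 19937 genes. The question behind the comparison is which genes respond to the loss of Klf4 in cells that are exposed to TGFβ. It is not stated whether replicate arrays stem from independent transfections, and the p-values therefore cover array-to-array spread only, which may be technical.

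Klf4 is a zinc finger transcription factor of the Krüppel-like family that binds GC-rich and CACCC sequences and is known in epithelia for holding cells in a differentiated state and out of division. TGFβ binds a pair of receptor kinases that phosphorylate Smad2 and Smad3, and these enter the nucleus with Smad4 and switch on genes such as Smad7 and Skil, which in turn dampen the pathway. In NMuMG cells TGFβ drives an epithelial-mesenchymal transition (EMT), in which cells dissolve their junctions, lay down fibronectin-rich matrix, build stress fibres and focal adhesions, and slow their division.

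The labels were checked first, because the targeted gene lay at nearly the same level on the arrays of both compared labels. Klf4 had log2 values of 7.43 and 7.24 on the arrays labelled siKlf4 with TGFβ, against 7.46 and 7.46 on those labelled siControl with TGFβ. The untreated arrays had 8.03 and 7.91 for siKlf4 and 8.60 and 8.43 for siControl. The arrays of both TGFβ labels thus lay at nearly the same Klf4 level, with a difference of -0.13 ± 0.0987 (SE, n = 2 arrays each, limma adjusted p = 0.444), while the lowest and the highest Klf4 values of the series stood on the arrays labelled siKlf4 with TGFβ and siControl without it. Smad7, the inhibitory Smad that TGFβ induces, had 9.66 and 9.61 on the arrays labelled siKlf4 with TGFβ, against 7.57 and 7.70 on those labelled siControl with TGFβ. The untreated arrays held 9.41 and 9.60 for siKlf4 and 8.12 and 8.02 for siControl, so Smad7 was high on all arrays labelled siKlf4 and low on all labelled siControl. Skil, another feedback inhibitor of the Smads, behaved alike by label, with 10.74 and 10.79 for siKlf4 with TGFβ and 9.0 and 8.92 for siControl with TGFβ. Of 22 genes known to be induced by TGFβ, 3 stood higher on both arrays labelled siControl with TGFβ than on both labelled siControl without TGFβ, 10 stood lower and 9 overlapped. Their median difference was only -0.09. On the arrays labelled siKlf4 without TGFβ, 19 of these 22 genes lay above both siControl arrays, 0 below and 3 overlapped, with a median of 1.38. The share of all genes that do not overlap was not counted for these 2 comparisons. Between the 2 groups with TGFβ it was 62.4%.

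The TGFβ-induced genes were therefore not higher as a set on arrays labelled siControl with TGFβ than on untreated siControl arrays. The paper reports that TGFβ itself lowers Klf4 in NMuMG cells, so the low Klf4 on these arrays cannot decide whether their label holds. An exchange of the label siControl with TGFβ with siKlf4 without TGFβ was not tested. The values below are given by the labels as deposited. Where it matters, the arrays labelled siKlf4 with TGFβ are also set against those labelled siKlf4 without TGFβ, which is what the comparison would be if those 2 labels were exchanged. Both comparisons share the siKlf4 arrays with TGFβ. The difference between the siKlf4 differences with and without TGFβ has the same value under both readings, since exchanging these 2 groups leaves its sum of terms unchanged.

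**Figure D1:**
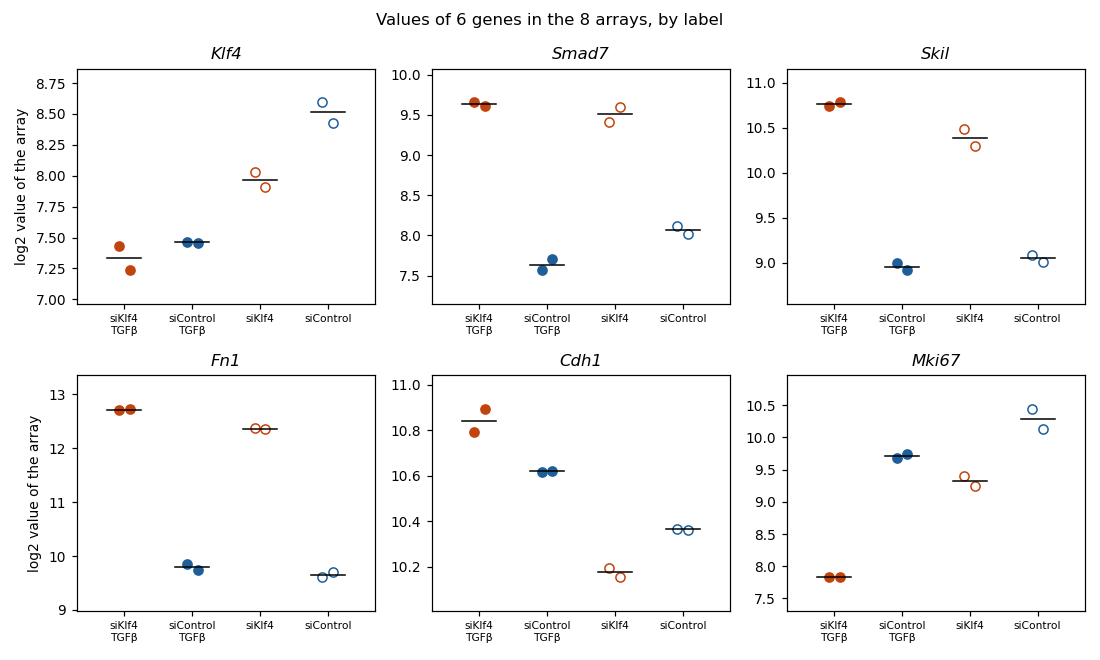
Log2 values of 6 genes on the 8 arrays by label, with each array as a point and the mean of a group as a line; filled points had TGFβ by label. Klf4 lies between 7.24 and 7.46 on the 4 arrays with TGFβ, and Smad7, Skil and Fn1 are high on the arrays labelled siKlf4 whether or not TGFβ was given.

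Markers of epithelium were strongly present on all 4 arrays, with a mean log2 value over 12 genes of 8.82 and 8.87 for siKlf4 with TGFβ, against 8.49 and 8.50 for siControl with TGFβ. Of the 12 genes 5 were called higher and 3 lower, against 12.3% and 11.9% of all genes, with a median difference of 0.14. The mean was raised mostly by Cldn4, at 3.66, and Elf3, at 1.30. Krt18 and Krt7, keratins of simple epithelium, were higher by 0.55 and 0.82, and Krt19, another, fell by 1.04. Cdh1 (E-cadherin, the defining epithelial cadherin) had 10.79 and 10.89, against 10.62 and 10.62, a difference of 0.22 that missed the threshold (adjusted p = 0.0686). It was higher than on the arrays labelled siKlf4 without TGFβ by 0.67 (adjusted p = 6.10e-04). The 10 fibroblast markers averaged 4.59 and 4.69, against 4.58 and 4.59, and the 8 endothelial markers 4.24 and 4.22, against 4.28 and 4.21. The 8 leukocyte markers averaged 4.98 and 5.0, against 4.79 and 4.82, and the 5 adipocyte markers 4.12 and 4.09, against 4.15 and 4.18. All of these means lie near or below the array medians of about 5. Of the 10 fibroblast genes 1 was called higher and 1 lower, with a lowest difference of -0.27. The higher one was Col1a1, a collagen I chain, at 7.09 and 7.10, against 6.34 and 6.56. Col1a1 thus lay above the medians, and its call (difference 0.65) was not kept in every alternative fit. Of the 8 leukocyte genes 2 were called higher, Csf1r, the receptor of macrophage colony-stimulating factor, at 1.0 and Cd68, a lysosomal protein, at 0.61, the call of Cd68 being lost without siKlf4 with TGFβ replicate 2 (adjusted p = 0.0867) and without siControl with TGFβ replicate 1 (difference 0.38, adjusted p = 0.0660). The 8 muscle and myoepithelial markers averaged 5.51 and 5.40 for siKlf4 with TGFβ, against 5.01 and 4.98, but their median difference was -0.01. Of them 2 were called higher, Acta2 and Tagln, the smooth muscle actin and transgelin genes that also rise in EMT. Another 1 was called lower, and the lowest difference was -0.81. The part of these markers in the results below was not tested. In such bulk samples, fewer cells of a type and less RNA per cell cannot be told apart.

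At an adjusted p under 0.05 (limma, Benjamini-Hochberg over 19937 genes), 2449 genes (12.3%) were higher and 2372 (11.9%) lower on the arrays labelled siKlf4 with TGFβ than on those labelled siControl with TGFβ. Of these, 1113 (5.58%) and 1157 (5.8%) also changed at least 1.5-fold. The count of higher genes was 1580 without siKlf4 with TGFβ replicate 2. The groups did not overlap for 62.4% of all genes. The median difference over all genes was -0.03, with the 5th and 95th percentiles at -0.66 and 0.63. A change of at least 2-fold was seen in 431 higher and 550 lower genes among those called, and of at least 16-fold in 6 and 3. Set against the arrays labelled siKlf4 without TGFβ, the same siKlf4 arrays with TGFβ had 1199 genes (6.01%) higher and 1370 (6.87%) lower. The siKlf4 difference without TGFβ gave 1990 genes (9.98%) higher and 1936 (9.71%) lower, 19.7% in all.

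The genes with the largest increases code for cornified envelope proteins, secreted ligands, proteases and their inhibitors, and matrix. Lce1g, a late cornified envelope protein, had log2 values of 8.04 and 8.13 on the arrays labelled siKlf4 with TGFβ, against 3.47 and 3.62 on those labelled siControl with TGFβ, 23.1-fold higher (log2 difference 4.53 ± 0.170 SE, adjusted p = 4.53e-07). Serpinb9e, of the intracellular serine protease inhibitors, had 8.33 and 8.22, against 3.95 and 3.86 (20.7-fold, adjusted p = 9.65e-07). Ppbp, the neutrophil-attracting chemokine Cxcl7, had 10.21 and 10.30, against 5.85 and 6.0 (20.1-fold, adjusted p = 1.04e-06). Lce1g and Serpinb9e lay below the array medians on the siControl arrays with TGFβ, and Ppbp above them. Signal over background was not used, so the folds are those of the deposited values. Il11, a cytokine of the interleukin-6 family, had 8.75 and 8.69 for siKlf4 with TGFβ and 4.65 and 4.54 for siControl with TGFβ (17.5-fold). Ctsw, a papain-like cysteine protease, had 9.41 and 9.30, against 5.13 and 5.41 (17.0-fold). Tnc, the matrix glycoprotein tenascin C, had 10.45 and 10.41, against 6.67 and 6.53 (14.3-fold, difference 3.84 ± 0.141 SE). Cldn4, a tight junction claudin, was 12.6-fold higher. Lmcd1, a LIM domain cofactor, rose by 3.55 on the log2 scale, Wnt7a, a secreted Wnt ligand, by 3.50, Fbln2 (fibulin 2) by 3.43 and Thbs1 (thrombospondin 1) by 3.02.

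The largest decreases were in enzymes, cytokines and surface proteins, several of them known from gut, liver and urinary epithelia. Ugt2b34, a glucuronosyltransferase that makes lipophilic compounds soluble, had 4.39 and 4.88 on the arrays labelled siKlf4 with TGFβ, against 9.47 and 9.62 on those labelled siControl with TGFβ, 30.03-fold lower (-4.91 ± 0.150 SE, adjusted p = 2.43e-07). Cyp2c65, a cytochrome P450, had 3.56 and 3.65, against 7.67 and 8.05 (19.1-fold lower, adjusted p = 5.29e-07). Il33, a nuclear cytokine released from damaged epithelium, had 7.87 and 8.01, against 12.11 and 12.03 (17.6-fold lower). Il33 was still well above the array medians on the siKlf4 arrays with TGFβ, whereas Ugt2b34 and Cyp2c65 fell to or below the medians. Ccl20, the chemokine for cells that carry Ccr6, had 5.23 and 5.06, against 9.31 and 8.92 (15.7-fold lower). Upk1b, a uroplakin of urothelial plaques, had 4.60 and 4.89, against 8.33 and 8.47 (12.6-fold lower). Mep1a (meprin α, a brush border metalloprotease) was 13.7-fold lower, Aldh1a1, which makes retinoic acid, 12.0-fold lower, and Sult1d1, a sulfotransferase, fell by 3.77 on the log2 scale. Lgals4, the gut lectin galectin 4, had 8.27 and 8.75, against 12.05 and 12.04.

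**Figure D2:**
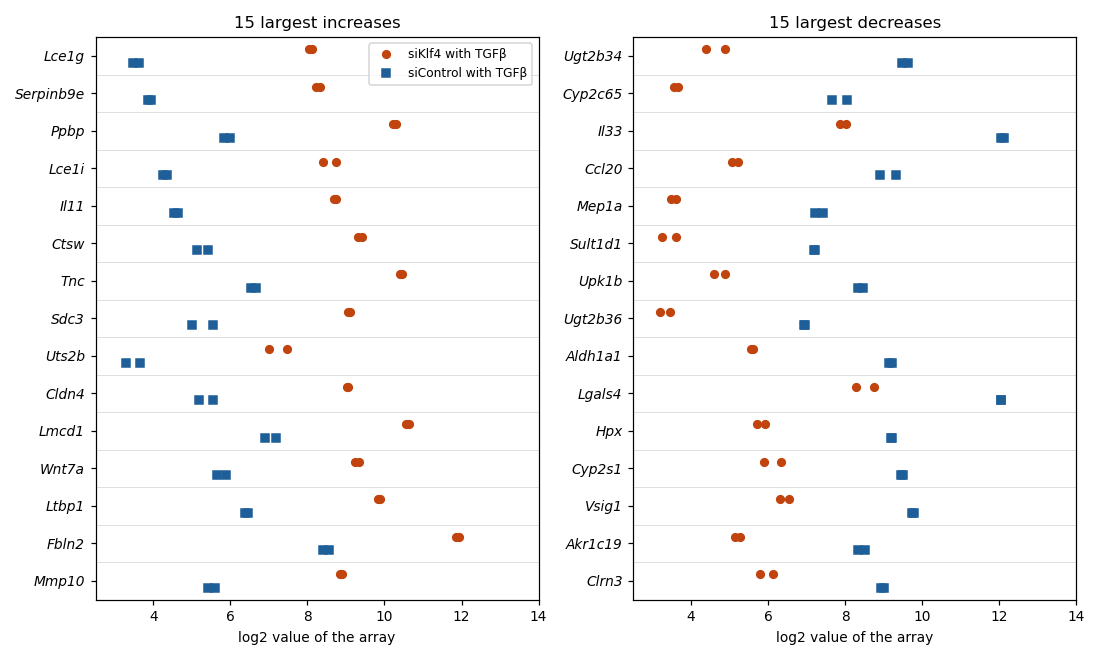
Log2 values of the 15 largest increases and the 15 largest decreases at an adjusted p under 0.05, with the arrays labelled siKlf4 with TGFβ as circles above those labelled siControl with TGFβ as squares. The genes were taken from those whose groups do not overlap; Lce1g lies at 8.04 and 8.13, against 3.47 and 3.62, and Ugt2b34 at 4.39 and 4.88, against 9.47 and 9.62.

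Set against the arrays labelled siKlf4 without TGFβ, these genes split. Lce1g, Serpinb9e and Ppbp were also higher there, by 1.56, 2.44 and 3.09 on the log2 scale (adjusted p = 4.57e-04, 1.23e-04 and 4.71e-05). Il11 differed by -0.30 (adjusted p = 0.403), Ltbp1 by -0.29 (0.0652) and Fn1 by 0.36 (0.0184). Ugt2b34 differed by -0.15 (0.668) and Il33 by 0.38 (0.266), so their fall by label has no counterpart of that size between the 2 siKlf4 groups. Cyp2c65 differed by -0.55 (0.0689) and Ccl20 by -0.91 (0.00702).

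**Figure D3:**
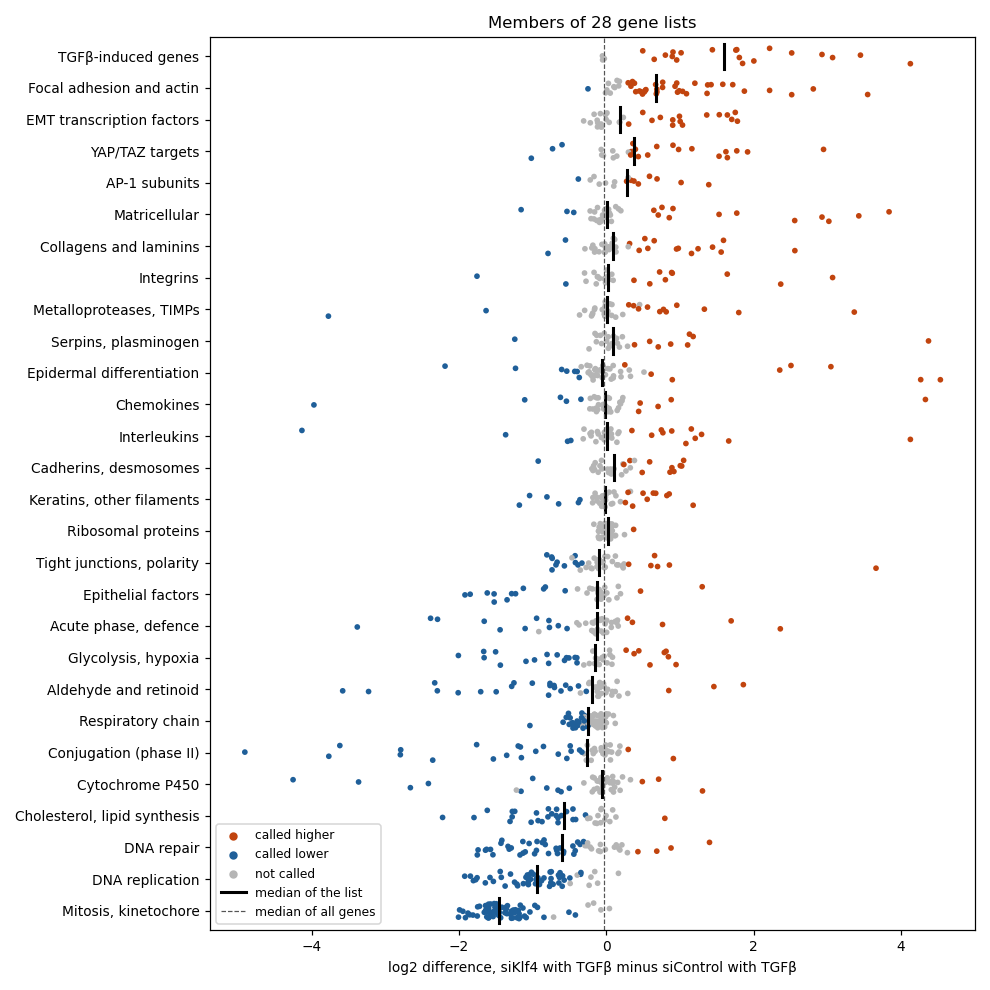
Log2 differences, siKlf4 with TGFβ minus siControl with TGFβ by label, of the members of 28 gene lists, 1 point per gene, coloured by whether it was called, with the median of each list as a bar and that of all genes (-0.03) as a dashed line. TGFβ-induced genes have a median of 1.60 and genes of mitosis one of -1.46.

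The cell division genes were lower almost throughout. Of 77 genes of mitosis and the kinetochore, 72 (93.5%) were called lower, with a median difference of -1.46, where 11.9% of all genes were lower. Of 57 DNA replication genes, 50 (87.7%) were lower, with a median of -0.94. In both lists 0 genes were higher by limma, also at an unadjusted p under 0.05. Mki67, which coats mitotic chromosomes and is used to count dividing cells, had 7.84 and 7.83 on the arrays labelled siKlf4 with TGFβ, against 9.68 and 9.75 on those labelled siControl with TGFβ (-1.88 ± 0.112 SE, 3.68-fold lower, adjusted p = 3.50e-06). The untreated arrays had 9.41 and 9.24 for siKlf4 and 10.44 and 10.13 for siControl, so the siKlf4 arrays with TGFβ were the lowest of the 8. Tk1, the thymidine kinase of S phase, had 7.43 and 7.38, against 9.39 and 9.28 (-1.92 ± 0.0795 SE, adjusted p = 6.82e-07). Lig1, which joins Okazaki fragments, had 7.46 and 7.58, against 9.35 and 9.38 (-1.85 ± 0.0793 SE, adjusted p = 7.05e-07). Mcm5 and Mcm6, subunits of the replicative helicase, fell by 1.77 and 1.06, and Spc24 of the outer kinetochore and Aurkb, the kinase of the chromosomal passenger complex, by 2.01 and 1.95. Ccnb2, a mitotic cyclin, had 7.69 and 7.76, against 9.27 and 9.31, and Plk1, the polo kinase that drives entry into mitosis, had 8.23 and 8.23, against 9.75 and 9.77. The groups of each of these genes were apart by far more than the spread between arrays. The 5 mitosis genes without a call were Cenpw, Bora, Fzr1, Cenpt and Zwint, of which Zwint, a kinetochore protein, differed by 0.04.

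DNA repair and checkpoint genes followed in part, with 35 of 54 (64.8%) lower, 4 higher and a median of -0.61. Among all genes 11.9% were lower and 12.3% higher. Set against the arrays labelled siKlf4 without TGFβ, 47 of the 57 replication genes and 68 of the 77 mitosis genes were lower, where 6.87% of all genes were lower, with medians of -0.88 and -0.85. The cell division genes therefore stood lower on the siKlf4 arrays with TGFβ under either reading of the labels.

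The promoters of Ccnb2, Plk1, Mcm5 and Mcm6 are shown because genes of mitosis and of replication are known to carry partly different elements near their starts. Each window runs from 250 bases before to 50 bases after the start of the gene and was taken from RefSeq (GRCm38.p6). In Ccnb2 (chr9:70421505-70421804, minus strand) and Plk1 (chr7:122159185-122159484, plus strand) capitals mark the cell cycle homology region TTTGAA (CHR) and the CCAAT box, all on the printed strand.
Ccnb2: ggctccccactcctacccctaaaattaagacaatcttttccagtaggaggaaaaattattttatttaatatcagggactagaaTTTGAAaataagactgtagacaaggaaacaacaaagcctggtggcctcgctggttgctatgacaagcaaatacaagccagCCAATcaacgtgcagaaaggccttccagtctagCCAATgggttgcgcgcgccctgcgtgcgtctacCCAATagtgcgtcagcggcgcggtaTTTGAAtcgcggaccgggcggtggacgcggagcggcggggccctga
Plk1: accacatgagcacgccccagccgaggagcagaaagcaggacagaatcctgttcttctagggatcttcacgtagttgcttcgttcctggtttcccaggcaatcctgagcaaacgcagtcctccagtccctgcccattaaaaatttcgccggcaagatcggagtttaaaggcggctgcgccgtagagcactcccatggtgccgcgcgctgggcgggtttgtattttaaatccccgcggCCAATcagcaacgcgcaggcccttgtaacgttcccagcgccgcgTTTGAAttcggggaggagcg
In Mcm5 (chr8:75109259-75109558, plus strand) and Mcm6 (chr1:128359656-128359955, minus strand) capitals mark the E2F-type letters TTTCGCGC, read forward in Mcm5 and as the reverse complement in Mcm6. The CCAAT letters that these windows also hold are not marked.
Mcm5: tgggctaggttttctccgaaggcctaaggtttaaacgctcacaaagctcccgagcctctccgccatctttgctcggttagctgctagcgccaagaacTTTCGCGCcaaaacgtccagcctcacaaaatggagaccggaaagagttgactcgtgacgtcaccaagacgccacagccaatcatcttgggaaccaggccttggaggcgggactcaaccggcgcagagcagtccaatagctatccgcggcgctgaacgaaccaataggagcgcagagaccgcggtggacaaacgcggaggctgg
Mcm6: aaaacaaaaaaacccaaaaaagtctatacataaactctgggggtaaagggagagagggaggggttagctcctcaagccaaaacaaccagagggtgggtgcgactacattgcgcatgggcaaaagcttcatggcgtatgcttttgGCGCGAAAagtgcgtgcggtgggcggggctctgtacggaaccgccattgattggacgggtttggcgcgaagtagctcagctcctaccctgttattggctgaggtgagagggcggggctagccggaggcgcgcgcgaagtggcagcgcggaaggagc
On either strand, TTTGAA occurred in 41 of 66 mitosis promoters with a window (62.1%), against 15.2% of 15613 promoters, and CCAAT in 49 of 66 (74.2%), against 38.2%. TTTCGCGC occurred in 5 of 49 replication promoters (10.2%), against 0.429% of all, and the commoner E2F-type spelling TTCCCGC in 19 of 49 (38.8%), against 6.50%. In DNA repair promoters TTCCCGC was found in 14 of 45 (31.1%). CCAAT was not particular to mitosis promoters, with 27 of 49 replication promoters (55.1%) and 26 of 45 DNA repair promoters (57.8%). Such matches describe the letters of the windows and not the binding of a factor.

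Most cell division genes had a lower siKlf4 difference with TGFβ than without. Without TGFβ the median was -0.76 for mitosis and -0.52 for replication, with 70 and 44 genes lower, where 9.71% of all genes were. The value with TGFβ was the lower one for 76 of 77 mitosis genes and 51 of 57 replication genes, against 55.3% of all genes. Tk1 differed by -1.92 with TGFβ and by -0.85 without it (difference of the differences -1.07 ± 0.112 SE, adjusted p = 0.00611), and Lig1 by -1.85 and -0.73 (-1.11 ± 0.112 SE, adjusted p = 0.00579). That test called 33 mitosis and 12 replication genes, all lower with TGFβ, where 0.978% of all genes were called lower. These 2 counts rest on all 8 arrays. They were 0 and 3 without siKlf4 with TGFβ replicate 1, 0 and 2 without its replicate 2, 1 and 3 without siControl with TGFβ replicate 1, and 0 and 3 without its replicate 2. Without an untreated array they were 20 and 8 (siKlf4 replicate 1), 23 and 5 (siKlf4 replicate 2), 32 and 10 (siControl replicate 1) and 9 and 3 (siControl replicate 2). Tk1 and Lig1 passed the test without any 1 array, at an adjusted p of up to 0.048 and 0.044. By the analysis of variance that the methods name, 0 genes in all passed this test (2400 at an unadjusted p under 0.05), so every one of these calls was lost.

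**Figure D4:**
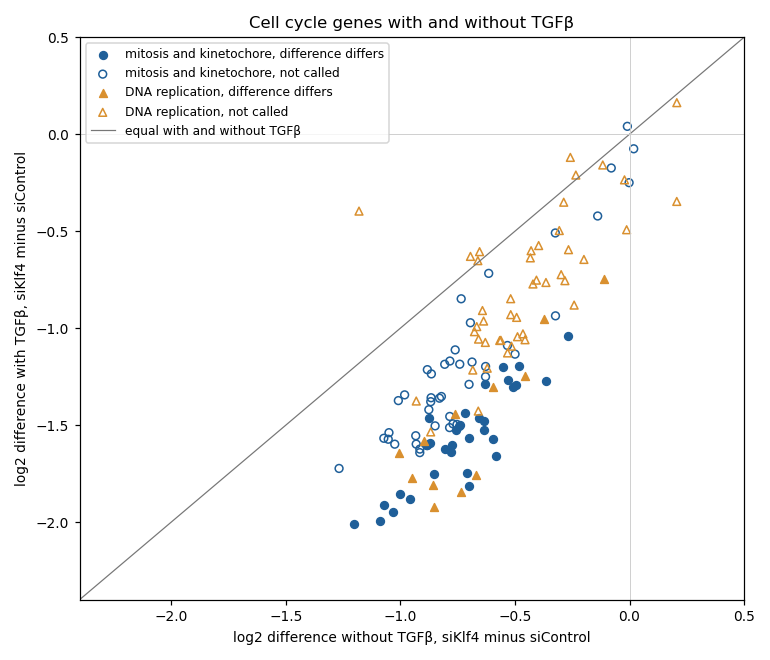
Log2 differences, siKlf4 minus siControl by label, of 77 mitosis and 57 replication genes with TGFβ (vertical) and without it (horizontal), with the line of equal differences and with filled symbols for genes whose 2 differences differ at an adjusted p under 0.05. Of the mitosis genes, 76 lie below the line.

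In the lists of enzymes that modify small lipophilic compounds, more members fell than rose, where 11.9% of all genes were lower and 12.3% higher. Conjugating enzymes (glucuronosyl-, sulfo- and glutathione transferases, which attach polar groups to drugs, steroids and bile products) had 20 of 45 members lower and 2 higher, with a median of -0.26. The 2 were Gsto2, at 0.91, and Gstk1, at 0.30, whose call was lost without any 1 of the 4 compared arrays, at adjusted p-values from 0.0742 to 0.155. Besides Ugt2b34, Ugt2b36 fell by 3.62, the sulfotransferase Sult1c2 by 2.79 and the glutathione transferase Gsta4 by 2.36. Of aldehyde, alcohol and aldo-keto enzymes 20 of 46 were lower and 3 higher, among them Akr1c19 at -3.23 and Aldh3a1, which clears aldehydes from lipid peroxidation, at -2.30. Rdh10, which oxidises retinol on the way to retinoic acid, rose by 1.46 and Aldh1l1, a folate enzyme, by 1.86. Of the 46 measured genes of the cytochrome P450 list, 10 were lower and 3 higher, with a median of -0.07. Cyp2s1 had 5.90 and 6.32 on the arrays labelled siKlf4 with TGFβ, against 9.44 and 9.51 on those labelled siControl with TGFβ. Cyp2c68 fell by 2.66 and Cyp4b1 fell by 2.42. Cyp1b1, which oxidises oestrogens and polycyclic hydrocarbons, rose by 1.30. The list left out 42 other genes with a P450 symbol, counted after their values were seen, of which 2 were higher and 3 lower. These 2, Cyp21a1 and Cyp11a1, enzymes of steroid hormone synthesis, rose by 3.18 and 3.01, more than any member of the list. Cyp21a1 has a near-identical pseudogene, so its value is uncertain. Of the 3, Cyp4a12b and Cyp4a12a, near-identical copies, fell by 2.43 and 1.59, and Cyp2c23 by 1.16.

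Set against the arrays labelled siKlf4 without TGFβ, 4 of the 45 conjugating enzymes were lower and 3 higher. In the P450 list 1 of 46 genes was lower and 1 higher. The shares of all genes in that comparison were 6.87% lower and 6.01% higher. The promoter of Cyp2c65 (GRCm38.p6, chr19:39060756-39061055, plus strand) is shown since it is the gene of the P450 list with the largest fall, and capitals mark CAAAGTCCA, a spelling of the element bound by the nuclear receptor HNF4.
Cyp2c65: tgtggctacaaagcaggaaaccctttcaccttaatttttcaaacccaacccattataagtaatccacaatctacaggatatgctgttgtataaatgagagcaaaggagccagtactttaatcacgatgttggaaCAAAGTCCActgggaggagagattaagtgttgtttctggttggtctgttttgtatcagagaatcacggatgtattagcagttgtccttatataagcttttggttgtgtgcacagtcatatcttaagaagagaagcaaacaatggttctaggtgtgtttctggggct
On either strand CAAAGTCCA occurred in 6 of 38 P450 promoters (15.8%), against 0.448% of all promoters, and in 0 of 38 of conjugating enzymes. It occurred in 3 of 443 promoters of genes at least 2-fold lower (0.677%) and in 2 of 341 of genes at least 2-fold higher (0.587%). Hnf4a, the gene of that receptor in liver and gut, had 8.25 and 8.42 for siKlf4 with TGFβ and 9.70 and 9.67 for siControl with TGFβ (-1.35 ± 0.102 SE, adjusted p = 1.30e-05). A link between the 2 was not tested.

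Cholesterol and fatty acid synthesis was lower along most of the pathway, with 24 of 38 genes lower, 1 higher and a median of -0.58. Among all genes 11.9% were lower and 12.3% higher. Elovl6, which elongates palmitate, had 6.41 and 6.39 on the arrays labelled siKlf4 with TGFβ, against 8.61 and 8.63 on those labelled siControl with TGFβ (4.67-fold lower, adjusted p = 4.48e-07). Acss2, which makes acetyl-CoA from acetate, fell by 1.80, Lss, which closes the sterol rings, by 1.62, Hmgcs1 of the mevalonate pathway by 1.24 and Idi1, the isopentenyl diphosphate isomerase, by 1.31. The member that rose was Fads3, a desaturase-like gene, at 0.79. Against the arrays labelled siKlf4 without TGFβ, 12 of the 38 were lower and 3 higher, beside 6.87% and 6.01% of all genes. CCAAT occurred in 24 of 31 promoters of the list (77.4%), against 38.2% of all.

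In the lists of energy metabolism more genes were lower than higher, where 11.9% of all genes were lower and 12.3% higher. Of 49 fatty acid oxidation and peroxisome genes, 14 were lower and 3 higher. Of 40 glycolysis and hypoxia genes, 16 were lower and 8 higher: Egln3, an oxygen-sensing hydroxylase, fell by 2.01, the lactate carrier Slc16a1 by 1.67 and Aldoc, an aldolase, by 1.66, while Hk2 (hexokinase 2) rose by 0.84 and Vegfa by 0.59. Of 63 respiratory chain genes, 23 were lower and 0 higher by limma (33 and 0 at an unadjusted p under 0.05), with a median of -0.25 and the largest fall in Ndufa5, a subunit of complex I, at -1.04. The respiratory count was 11, 12, 11 and 10 without siKlf4 with TGFβ replicate 1, its replicate 2, siControl with TGFβ replicate 1 and its replicate 2.

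The program that TGFβ is known to induce was higher on the arrays labelled siKlf4 with TGFβ, although both groups had TGFβ by label. Of 22 such genes 19 were higher and 0 lower by limma (also at an unadjusted p under 0.05), with a median of 1.60. By limma 12.3% of all genes were higher and 11.9% lower. Fn1 (fibronectin) had 12.70 and 12.73, against 9.84 and 9.73 on the arrays labelled siControl with TGFβ (2.93 ± 0.0803 SE, 7.60-fold, adjusted p = 1.77e-07). Ltbp1, which stores latent TGFβ in the matrix, had 9.84 and 9.88, against 6.45 and 6.38 (10.9-fold). Itga5, the α chain of the fibronectin receptor, had 8.96 and 8.88, against 6.01 and 5.69 (8.39-fold). In these 3 genes the 2 arrays of a group lay close together and the groups far apart. Pmepa1, a feedback inhibitor of the Smads, had 11.53 and 11.60, against 9.78 and 9.83. Against the arrays labelled siKlf4 without TGFβ, 3 of the 22 genes were higher and 2 lower, with a median of 0.09. The shares of all genes in that comparison were 6.01% higher and 6.87% lower.

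Focal adhesion and actin-binding genes rose together, with 34 of 44 (77.3%) higher, where 12.3% of all genes were, 1 lower and a median of 0.67. The lower gene was Lasp1, at -0.25, whose call was lost, at adjusted p-values from 0.0537 to 0.224, without any 1 array but those labelled siKlf4 without TGFβ. Capg, which caps actin filaments, had 7.95 and 7.96 on the arrays labelled siKlf4 with TGFβ, against 5.01 and 5.28 on those labelled siControl with TGFβ, and Tagln (transgelin) had 8.11 and 7.74, against 5.13 and 5.69. Actn1, the actin crosslinker α-actinin, rose by 1.87, Vcl (vinculin) by 1.42 and Zyx (zyxin) by 1.37. Against the arrays labelled siKlf4 without TGFβ, 13 of the 44 were higher and 3 lower, with a median of 0.07. The shares of all genes in that comparison were 6.01% higher and 6.87% lower. Of 26 targets of YAP and TAZ, the cofactors that respond to cell spreading, 16 were higher and 3 lower, among them Nt5e (CD73) at 2.95, F3 (tissue factor) at 1.92 and Ccn2 (connective tissue growth factor) at 1.77.

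Among matrix genes and their receptors more were higher than lower. Of 36 collagen and laminin chains 13 were higher and 2 lower, of 40 matricellular glycoproteins 12 and 3, and of 25 integrin subunits 9 and 2, each with a median close to that of all genes, of which 12.3% were higher and 11.9% lower. Col12a1, a collagen of dense connective tissue, rose by 2.56, Lamb3 of the hemidesmosomal laminin by 1.59, and Lamb1 and Col4a1 of basement membranes by 1.56 and 1.44, whereas Lamb2 fell by 0.79. Among integrins Itgb3, the β chain of the vitronectin receptor, rose by 2.37 and the collagen receptor chain Itga2 by 1.64, while Itga1, another collagen receptor chain, fell by 1.76. The integrin count of lower genes was 1 without siKlf4 with TGFβ replicate 2 and without siControl with TGFβ replicate 1. Ccn4, a matricellular protein, rose by 2.56.

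Of 38 metalloproteases and their inhibitors, 11 were higher and 2 lower, against 12.3% and 11.9% of all genes. Mmp10 (stromelysin 2), which degrades proteoglycans and activates collagenases, had 8.86 and 8.90 on the arrays labelled siKlf4 with TGFβ, against 5.60 and 5.43 on those labelled siControl with TGFβ (10.3-fold higher, 3.36 ± 0.130 SE, adjusted p = 4.88e-07). Mmp14, a membrane-bound collagenase, rose by 1.80, Adam8, a sheddase, by 1.33 and Timp1, an inhibitor of these enzymes, by 0.95. Mmp13 (collagenase 3) fell by 1.63. Against the arrays labelled siKlf4 without TGFβ, Mmp10 was higher by 2.39 and Mmp13 by 2.29 (adjusted p = 2.64e-05 and 1.07e-05), so Mmp13 had opposite signs in the 2 comparisons. The promoter of Mmp10 (GRCm38.p6, chr9:7502092-7502391, plus strand) is shown with its AP-1 element in capitals.
Mmp10: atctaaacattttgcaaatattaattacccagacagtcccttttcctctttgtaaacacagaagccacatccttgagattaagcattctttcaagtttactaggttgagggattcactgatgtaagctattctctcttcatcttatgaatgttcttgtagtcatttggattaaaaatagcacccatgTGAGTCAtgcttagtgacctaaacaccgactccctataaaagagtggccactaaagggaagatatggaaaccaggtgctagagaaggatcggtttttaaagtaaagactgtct
The AP-1 spelling TGANTCA, on either strand, occurred in 5 of 27 promoters of this list (18.5%) and in 16 of 44 of the epidermal list (36.4%), against 6.98% of all promoters. Among conjugating enzymes, of which more fell than rose, it occurred in 8 of 38 (21.1%). In genes at least 2-fold higher it occurred in 30 of 341 (8.80%), and in genes at least 2-fold lower in 36 of 443 (8.13%).

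The increase of the epidermal genes was confined, among the 49 genes of the cornified envelope and epidermal differentiation complex measured, to 8 members, of which 7 are Lce1 genes, while 7 members fell. These shares (16.3% and 14.3%) lie close to those of all genes, and the count of lower members was 4 without siKlf4 with TGFβ replicate 2 and without siControl with TGFβ replicate 1. Lce1i had 8.74 and 8.39 on the arrays labelled siKlf4 with TGFβ, against 4.26 and 4.34 on those labelled siControl with TGFβ (19.2-fold higher), Lce1f had 6.75 and 6.71, against 3.62 and 3.75 (8.26-fold), and Lce1j had 9.11 and 9.06, against 6.78 and 6.68. Lce1h had 7.12 and 8.52, against 5.47 and 5.16, with the 2 arrays labelled siKlf4 apart by more than 1 log2 unit. The eighth gene was Ivl (involucrin), at 0.61. Ppl (periplakin), a scaffold of the envelope, fell by 2.19 and Sprr2g, a small proline-rich envelope protein, by 1.23.

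The Lce1 genes are close copies, so their probe sets could share signal, and the values of single members are uncertain. The windows of Lce1g (GRCm38.p6, chr3:92752289-92752588, minus strand) and Lce1i (chr3:92778850-92779149, minus strand) are printed to show how alike the copies are, with the longest identical run of 27 bases in capitals.
Lce1g: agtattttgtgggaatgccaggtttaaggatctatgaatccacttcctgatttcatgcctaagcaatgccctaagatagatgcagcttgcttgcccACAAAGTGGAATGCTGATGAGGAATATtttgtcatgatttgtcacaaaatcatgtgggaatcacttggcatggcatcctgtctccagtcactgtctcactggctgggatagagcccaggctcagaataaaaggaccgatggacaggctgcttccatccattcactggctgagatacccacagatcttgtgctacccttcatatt
Lce1i: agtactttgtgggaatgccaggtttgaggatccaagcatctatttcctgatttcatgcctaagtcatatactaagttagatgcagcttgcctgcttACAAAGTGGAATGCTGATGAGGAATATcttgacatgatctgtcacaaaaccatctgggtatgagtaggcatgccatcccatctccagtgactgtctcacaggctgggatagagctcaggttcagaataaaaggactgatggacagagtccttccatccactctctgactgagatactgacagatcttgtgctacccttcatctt
The 2 windows were identical at 258 of 300 positions without gaps.

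Of 28 serpins and genes of the plasminogen system, 8 were higher and 1 lower, against 12.3% and 11.9% of all genes. Next to Serpinb9e, its relative Serpinb9b rose by 1.13, while Serpinb6c fell by 1.24. Among 39 interleukins and their receptors 11 were higher and 4 lower: with Il11, Il24, a cytokine of the interleukin-10 family, rose by 1.66, and with Il33, Il22ra1, the epithelial receptor chain for interleukin 22, fell by 1.37. Of 40 chemokines and their receptors 5 were higher and 5 lower, near the shares of all genes, and the higher count was 2 without siKlf4 with TGFβ replicate 1. Ppbp and Ccl20 thus moved in opposite directions by more than 4 and nearly 4 log2 units. Edn1, the peptide endothelin 1, rose by 1.70.

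Of 16 AP-1 subunits, 8 were higher and 1 lower on the arrays labelled siKlf4 with TGFβ than on those labelled siControl with TGFβ, with a median of 0.28. Fosl2 had 9.45 and 9.55, against 8.08 and 8.15 (1.39 ± 0.0808 SE, adjusted p = 3.07e-06), Junb had 8.37 and 8.46, against 7.52 and 7.28, and Jun 9.52 and 9.51, against 8.84 and 8.82. Both arrays of siKlf4 with TGFβ lay above both of siControl with TGFβ for these 3 genes. In 1 direction or the other the groups did not overlap for 62.4% of all genes. The lower gene was Fos, at -0.38, whose call was lost without siKlf4 with TGFβ replicate 1 (adjusted p = 0.198) and without either array labelled siControl with TGFβ (0.114 and 0.126). The count of 8 was 5 without siKlf4 with TGFβ replicate 1, 4 without its replicate 2, 4 without siControl with TGFβ replicate 1 and 4 without its replicate 2. In the JNK cascade, the kinase relay that phosphorylates Jun, 7 of 24 genes were higher and 2 lower, against 12.3% and 11.9% of all genes. Map4k4, an upstream kinase, rose by 0.74 and Dusp10, a phosphatase that switches JNK off, by 0.88, while the upstream kinases Map3k1 and Map3k5 fell by 1.53 and 0.99. Mapk8, the gene of JNK1, had 7.91 and 7.83, against 7.60 and 7.59, a difference of 0.27 ± 0.0974 SE (adjusted p = 0.0761). Of 30 genes of the EGF family, its receptors and ERK feedback, 9 were higher and 10 lower: Dusp4, an ERK phosphatase, rose by 1.40, and Erbb3, a receptor for neuregulin, and Egr1, an early response factor, fell by 1.04 and 1.10.

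Among the BCL2 family, which sets the threshold for apoptosis, 5 of 21 genes were higher and 2 lower, against 12.3% and 11.9% of all genes. Bcl2l11 (Bim), a killer protein of the BH3-only class, had 8.34 and 8.47 on the arrays labelled siKlf4 with TGFβ, against 6.84 and 6.87 on those labelled siControl with TGFβ (1.55 ± 0.148 SE, adjusted p = 5.86e-05), and the BH3-only genes Bmf and Pmaip1 (Noxa) rose by 1.49 and 1.28. Bcl2l1 (Bcl-xL), a survival protein, fell by 0.45, and Bnip3, an atypical BH3-only protein of mitochondria, had 5.71 and 5.90 for siKlf4 with TGFβ and 7.32 and 7.30 for siControl with TGFβ (adjusted p = 1.0e-05). The called BH3-only genes thus moved in both directions, as did the survival genes, since Bcl2 rose by 0.47. Of 28 CDK inhibitors and p53 targets 8 were higher and 6 lower. Cdkn2b (p15), a TGFβ-induced brake on CDK4 and CDK6, had 9.93 and 10.05, against 8.71 and 8.79, and Cdkn2c (p18), of the same inhibitor family, had 6.23 and 6.09, against 8.17 and 8.11. These 2 inhibitors moved in opposite directions, and Gadd45g, a growth arrest gene, rose by 2.01.

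Of 33 transcription factors that drive EMT, 15 (45.5%) were higher and 0 lower by limma (15 and 1 at an unadjusted p under 0.05), with a median of 0.18. The shares of all genes called by limma were 12.3% higher and 11.9% lower. Zeb2, a repressor of E-cadherin, had 7.09 and 7.08 on the arrays labelled siKlf4 with TGFβ, against 5.36 and 5.26 on those labelled siControl with TGFβ (1.78 ± 0.0870 SE, adjusted p = 1.33e-06), and Snai1 (Snail), a repressor of the same gene, had 7.04 and 7.24, against 6.10 and 6.12. The groups did not overlap for either gene, which also holds for 62.4% of all genes. Runx1 rose by 1.75, Sox9 by 1.70, Foxf2 by 1.64, Ets1 by 1.53 and Zeb1 by 1.0. Twist1 differed by -0.06 (adjusted p = 0.791). Relative to untreated siKlf4 arrays, 4 of the 33 factors were higher and 2 lower, beside 6.01% and 6.87% of all genes.

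Of 35 transcription and splicing factors of epithelia, 12 (34.3%) were lower and 2 higher, against 11.9% and 12.3% of all genes. The 2 were Elf3 and Id3. Foxa2, a forkhead factor of endodermal epithelia, had 6.88 and 7.15 on the arrays labelled siKlf4 with TGFβ, against 8.63 and 8.63 on those labelled siControl with TGFβ (-1.62 ± 0.139 SE, adjusted p = 2.89e-05). The gut factor Cdx2 fell by 1.53, Rbm47, an epithelial RNA-binding protein, by 1.92, Klf5, a relative of Klf4, by 1.29 and Ehf, an epithelial Ets factor, by 1.52. Id2, an inhibitor of helix-loop-helix factors that TGFβ represses, fell by 1.85. Elf3, another epithelial Ets factor, rose by 1.30. Id3, of the same inhibitor family as Id2, differed by 0.46, and its call was lost, at adjusted p-values from 0.0543 to 0.181, without any 1 array but those labelled siControl without TGFβ. Against the arrays labelled siKlf4 without TGFβ, 2 of the 35 were higher and 4 lower, beside 6.01% and 6.87% of all genes.

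Junction genes differed by list, where 12.3% of all genes were higher and 11.9% lower. Of 31 cadherins, catenins and desmosome genes 10 were higher and 1 lower: Cdh2 (N-cadherin) had 10.54 and 10.48 on the arrays labelled siKlf4 with TGFβ, against 9.61 and 9.58 on those labelled siControl with TGFβ, Cdh6 rose by 1.02 and Ctnnd1 (p120 catenin, which holds cadherins at the membrane) by 1.0, and Dsg2, a desmosomal cadherin, fell by 0.93. Ctnnb1 (β-catenin), which the paper names as rising on loss of Klf4, differed by -0.07 (limma adjusted p = 0.621). Set against the arrays labelled siKlf4 without TGFβ, Ctnnb1 was higher by 0.28 (limma adjusted p = 0.0431). Of 42 tight junction and polarity genes 11 were lower and 6 higher, with Ocln (occludin) at -0.81 and Tjp1 (ZO-1) at -0.69 against Cldn4 at 3.66 and Llgl1, a polarity gene, at 0.85. The lower count was 7 without siControl with TGFβ replicate 2. Of 40 keratins and other intermediate filament genes 10 were higher (25%) and 6 lower (15%), the latter near the share of all genes. Krt20 rose by 1.18 and Krt19 and Krt23 fell by 1.04 and 1.18. The keratin count of higher genes was 5, 6 and 6 without siKlf4 with TGFβ replicate 2, siControl with TGFβ replicate 1 and its replicate 2, and that of lower genes was 3 without siKlf4 with TGFβ replicate 2 and without siControl with TGFβ replicate 1.

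Secretory and defence genes fell more often than they rose, where 11.9% of all genes were lower and 12.3% higher. Of 35 mucins, uroplakins and related surface genes 12 were lower and 1 higher, with Muc1, a transmembrane mucin, at 6.51 and 7.09 on the arrays labelled siKlf4 with TGFβ, against 9.37 and 9.52 on those labelled siControl with TGFβ. Of 44 acute-phase, complement and secretory defence genes 11 were lower and 5 higher: Hpx (hemopexin) fell by 3.38, Fgb (a fibrinogen chain) by 2.39 and Cfb (complement factor B) by 2.29, while Orm1, an acute-phase glycoprotein, rose by 2.36 and Clu (clusterin) by 1.69. The higher count here was 3, 3 and 2 without siKlf4 with TGFβ replicate 1, siControl with TGFβ replicate 1 and its replicate 2. Of 52 transporters 11 were lower and 2 higher, with the water channel Aqp1 at -1.94 and Abcc2, an export pump for conjugates, at -1.83.

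In the unfolded protein response and among ATF4 targets 10 of 48 genes were higher (20.8%) and 7 lower (14.6%), against 12.3% and 11.9% of all genes. Ddit4, a stress-induced inhibitor of mTORC1, had 9.45 and 9.75 on the arrays labelled siKlf4 with TGFβ, against 7.47 and 7.61 on those labelled siControl with TGFβ, and Eif2ak3 (the stress kinase PERK) rose by 1.10. The higher count was 6 without siKlf4 with TGFβ replicate 2 and without siControl with TGFβ replicate 1, and the lower count was 2, 4, 4 and 2 without siKlf4 with TGFβ replicate 1, its replicate 2, siControl with TGFβ replicate 1 and its replicate 2. Of 45 interferon response and antigen processing genes 8 were higher (17.8%) and 5 lower (11.1%), near the shares of all genes, with B2m, the light chain of MHC class I, at 1.15 and the antiviral genes Oasl2 and Ifit2 at 1.56 and -1.49. The 8 became 5, 4 and 5 without siKlf4 with TGFβ replicate 1, its replicate 2 and siControl with TGFβ replicate 2. The 39 ribosomal protein genes, which serve every cell, had a median of 0.02.

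The letters CACCC, to which Klf4 can bind, occurred on either strand in 60.1% of all promoter windows, in 241 of 341 (70.7%) of genes at least 2-fold higher and in 264 of 443 (59.6%) of genes at least 2-fold lower on the arrays labelled siKlf4 with TGFβ. Over the gene lists the share lay between 44.8% (chemokines) and 92.6% (metalloproteases). Binding was not measured on these arrays.

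What differed between the siKlf4 comparison with TGFβ and that without it was tested directly, as the difference of the 2 differences, whose value does not depend on whether the label siControl with TGFβ is exchanged with siKlf4 without TGFβ. It was higher with TGFβ for 109 genes (0.547%) and lower for 195 (0.978%) by limma. Ppbp had the largest such value among named genes, with 4.33 with TGFβ and 1.35 without it (2.98 ± 0.285 SE, adjusted p = 0.00522): its siKlf4 arrays with TGFβ were at 10.21 and 10.30, against 5.85 and 6.0 for siControl with TGFβ, and the untreated arrays at 7.37 and 6.96 for siKlf4 and 6.14 and 5.49 for siControl. Serpinb9e followed with 4.37 and 1.73 (2.64 ± 0.284 SE, adjusted p = 0.00611), with untreated values of 6.21 and 5.46 for siKlf4 and 4.0 and 4.22 for siControl. In both genes the siKlf4 arrays with TGFβ were the highest of all 8. Clec2e, a C-type lectin-related gene, had 5.59 and 5.44, against 3.39 and 3.25, with 4.08 and 3.66 for untreated siKlf4 and 3.60 and 3.78 for untreated siControl, so its difference of 2.19 with TGFβ stood against 0.18 without. Mmp10 differed by 3.36 and 1.48 and Lce1f by 3.05 and 1.31.

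In the other direction, Upk1b had untreated values of 4.85 and 5.05 for siKlf4 and 6.60 and 6.60 for siControl, and its difference was -3.65 with TGFβ and -1.65 without (-2.0 ± 0.162 SE, adjusted p = 0.00257). Arhgef26 had 5.96 and 6.10 on the arrays labelled siKlf4 with TGFβ, against 8.42 and 8.64 on those labelled siControl with TGFβ, and 6.28 and 6.18 for untreated siKlf4, against 6.86 and 6.82 for untreated siControl (-1.89 ± 0.141 SE, adjusted p = 0.00209). Slco1a5, an organic anion carrier, differed by -1.49 with TGFβ and by 0.30 without, Upk3b, another uroplakin, by -1.71 and -0.15, Cd36, a fatty acid receptor, by -2.06 and -0.43, Vat1l by -2.80 and -1.03, and Elovl6 by -2.22 and -0.98. On the siControl arrays with TGFβ, Upk1b was higher than on the other 6 arrays, whose values were between 4.60 and 6.60.

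**Figure D5:**
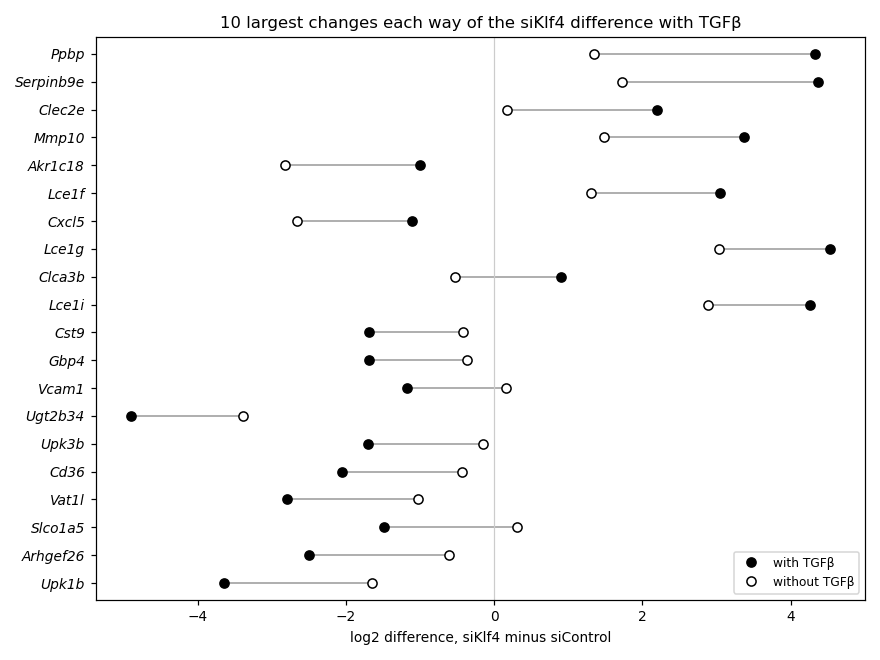
Log2 differences, siKlf4 minus siControl by label, with TGFβ (filled) and without it (open) for the 10 genes whose difference rose most and the 10 whose difference fell most with TGFβ. Ppbp stands at 4.33 with TGFβ and 1.35 without, and Upk1b at -3.65 and -1.65.

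The tests of this kind depended on single arrays more than those above. The counts of 109 and 195 were 24 and 26 without siKlf4 with TGFβ replicate 1, 13 and 15 without its replicate 2, 17 and 29 without siControl with TGFβ replicate 1, and 14 and 17 without its replicate 2. Without siKlf4 replicate 1 they were 82 and 129, without siKlf4 replicate 2 62 and 104, without siControl replicate 1 63 and 151, and without siControl replicate 2 54 and 65. Ppbp, Serpinb9e, Clec2e, Mmp10, Lce1f, Upk1b, Arhgef26, Slco1a5, Vat1l, Cd36, Upk3b and Elovl6 passed the threshold without any 1 array, at adjusted p-values of up to 0.048. All of them lost the call by the analysis of variance, which called 0 genes higher and 0 lower (2400 at an unadjusted p under 0.05, against 2403 by limma).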

How the data were processed

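RNA of NMuMG cells was hybridised to Affymetrix whole-transcript arrays, 8 in 4 groups of 2, and the sample labels gave the groups and replicate numbers. The authors normalized the arrays with Robust Multi-Array (RMA), and deposited 1 log2 value per probe set and array. Oligo 1.14.0 is named in the submitters' processing notes. The log2 base was read from the range of the values, and the annotation and background settings are not given in the sources used here. Quantile normalization within RMA forces a common distribution on all arrays, so a shift shared by most genes could not be seen. Array medians lay between 4.90 and 5.0, replicates correlated at 0.992 to 0.995 across all probe sets, and precision is limited by the number of arrays.

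Gene names came from the platform annotation (1321 had several symbols and 11799 were not listed), and 21553 single-symbol probe sets matched RefSeq mouse genes. The probe set of highest mean was kept for 954 genes that had more than 1. Differences were fitted in R 4.3.3 with limma 3.58.1 (lmFit with 1 mean per group over all 8 arrays, eBayes, 4 residual and 4.93 prior degrees of freedom, Benjamini-Hochberg within each of 4 contrasts, threshold 0.05). The methods of the study name a one-way analysis of variance, which was run as an alternative, as were a replicate block, a fit on the 4 arrays alone, trend and robust options, array weights, quantile and cyclic loess normalization, a filter on the dimmest 30%, averaged probe sets and leaving out each array. The fit was tested on simulated data.

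The comparison and the gene lists (1529 of 1653 list entries measured) were chosen with earlier results of these data known. Named genes are the 25 largest increases and decreases whose groups do not overlap, the 10 largest changes of the siKlf4 difference each way, and of each list the 4 called members with the largest differences, 2 against its main direction and 2 with the smallest difference, with clone and prediction names left out, and the genes the study names. Not all genes that this rule gives are described in the text. Outside this rule, Actn1, Adam8, Bcl2, Bora, Ccn4, Ccnb2, Cenpt, Cenpw, Ehf, Ets1, Gsta4, Hmgcs1, Hnf4a, Ivl, Klf5, Krt18, Lce1j, Mcm6, Mki67, Plk1, Pmepa1, Skil, Smad7, Timp1, Vcl, Zeb1 and Zyx were chosen after their values were seen, as were the promoter motifs, of which others were looked at and are not given. Promoter windows of 300 bases (250 before and 50 after the start) came from RefSeq (GRCm38.p6) for 15613 genes. Binding and reporter data of the study were not analysed here.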

Additional observations from a re-analysis of the deposited data

Results flagged for a closer look

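The siKlf4 difference changed with TGFβ, by the limma test of the difference of differences, for 109 genes that were higher and 195 that were lower with TGFβ than without. Each value below is the log2 difference siKlf4 minus siControl with TGFβ minus that without TGFβ, by label, and it is the same if the label siControl with TGFβ is exchanged with siKlf4 without TGFβ. By the analysis of variance of the methods every one of these calls was lost (0 higher and 0 lower). In limma, without any 1 array the call held for Ppbp (2.98), Serpinb9e (2.64), Clec2e (2.02), Mmp10 (1.88), Lce1f (1.74) and Clca3b (1.43), whose difference was higher with TGFβ, and for Upk1b (-2.0), Arhgef26 (-1.89), Slco1a5 (-1.79), Vat1l (-1.77), Cd36 (-1.62), Upk3b (-1.56), Elovl6 (-1.24), Lig1 (-1.11) and Tk1 (-1.07), whose difference was lower. The call was lost without at least 1 array for Akr1c18 (1.82), Cxcl5 (1.56), Lce1g (1.5), Lce1i (1.39), Ddit4 (1.15), Jun (1.06), Bnip3 (1.05), Elf3 (1.03), Ltbp1 (1.01), Edn1 (0.96), Bmf (0.78), Col12a1 (0.78), Lce1j (0.74), Csf1r (0.62) and Rdh10 (0.59), higher with TGFβ, and for Ugt2b34 (-1.52), Vcam1 (-1.33), Gbp4 (-1.32), Cst9 (-1.27), Fgb (-1.0), Aldh1a1 (-0.98), Ccnb2 (-0.97), Mki67 (-0.92), Aurkb (-0.92), Slc16a1 (-0.83), Mcm5 (-0.82), Spc24 (-0.81), Plk1 (-0.77), Ifit2 (-0.74) and Cyp4b1 (-0.68), lower with TGFβ. Of these 30 genes, 26 lost it without siKlf4 with TGFβ replicate 1, 29 lost it without its replicate 2, 26 lost it without siControl with TGFβ replicate 1, 29 lost it without its replicate 2, 10 lost it without siKlf4 replicate 1, 14 lost it without its replicate 2, 11 lost it without siControl replicate 1 and 20 without siControl replicate 2. No explanation was tested for any of them.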

How the results depend on the processing

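The median difference of all genes lay between -0.03 and 0.00 under every setting run, and the share of higher genes among the calls between 47.8% and 52.3%. Among the named genes, no difference called by the test changed sign under these settings, and the other called genes were not checked for this. The median of all genes did change sign, at -0.0299 in the reported fit and 0.0003 with quantile normalization. More genes were lower than higher with array weights (2994 higher, 3023 lower), with the 4 arrays alone (2810 and 2822), without siControl with TGFβ replicate 1 (1643 and 1729) and without siKlf4 with TGFβ replicate 2 (1580 and 1728). With a 1.5-fold minimum added to the threshold, 1113 genes were higher and 1157 lower. Without 1 array, the counts of higher and lower genes were 1580 to 2529 and 1643 to 2465, and of the 4821 genes called either way 3259 (without siKlf4 with TGFβ replicate 2) to 3393 (without siControl with TGFβ replicate 2) kept their call when 1 of the 4 compared arrays was left out. The test of the difference with TGFβ minus that without was the most dependent on the setting. It called 0 genes higher and 0 lower by the analysis of variance of the methods, in which 2400 genes had an unadjusted p under 0.05 (2403 in limma), 287 and 473 with trend and robust options, 167 higher with quantile normalization, and 13 to 82 and 15 to 151 without 1 array. The count of respiratory chain genes lower was 36 with trend and robust options and 10 to 24 without 1 array. That of unfolded protein response genes higher was 16 with array weights, 19 with trend and robust options and 6 to 13 without 1 array, and that of interferon response genes higher 5 by the analysis of variance and 4 to 8 without 1 array. AP-1 genes higher ranged from 4 to 8, tight junction genes lower from 7 to 12 and keratin genes higher from 5 to 11 without 1 array. The causes were not tested. Of the values for single named genes under the alternatives, 5353 stayed on their side of the threshold, 92 lost the call and 23 gained it. Named genes were mainly chosen for the size of their differences in these same data, so these counts say little about other genes.

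The replicate numbers of the labels were not taken to pair the arrays: deviations of same-numbered arrays from their group means correlated at 0.0383 between the 2 compared groups and at 0.382 between the untreated groups, and at -0.0503 to 0.00693 for the other 4 pairs of groups. With the replicate number as a block, 2521 genes were higher and 2429 lower, 4712 of the 4821 calls were kept, and 326 genes were called in the difference with minus without TGFβ. With 2 arrays a group, small differences go undetected: the smallest difference called was 0.23 on the log2 scale. Signal over background per gene was not used here.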
